A study of Arabidopsis thaliana with 11 samples.

Results

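Parental allele balance was examined within endosperm that lacked RNA polymerase IV on both parental sides. The crosses joined an nrpd1a-4 mother of the Ler strain to an nrpd1a-4 father of the Col strain (homozygous nrpd1, 3 libraries). They were set beside a Ler mother crossed to a Col father, both wild type at NRPD1 (wild type, 2 libraries), from the same experiment. Arabidopsis thaliana seeds were dissected by hand 6 days after pollination, and poly(A) RNA of the endosperm was read as pairs of 100 bases. Seeds of each library came from crosses between several plants, and the labels do not say which plants were shared, so p-values measure only the spread between these libraries. Each deposited table gives a gene's total count and, separately, how many of its reads carried the Ler and how many the Col allele. A second experiment of the series is shown only beside the main results. In it a wild-type Ler mother was crossed to an nrpd1a-4 Col father (paternal nrpd1, 3 libraries) or to a wild-type Col father (3 libraries), seeds were taken at 6 to 7 days, and single reads of 40 bases came from another kit.

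The maternal share of a gene is the percentage of its allele counts that carry the Ler allele. Genes entered when they had at least 20 allele counts in each of the 3 homozygous nrpd1 libraries and stood neither in a deposited list of 5081 loci of chromosomes 1 and 2 nor in the stretch AT5G01010 to AT5G12300. This gave 7329 of 32678 gene rows, 22.4% of all rows and 27.8% of the 26369 rows outside the left-out regions. A further 19040 rows fell under the count minimum, 13196 of them with no allele count at all. The 94 genes whose lowest library held exactly 20 counts had a median share of 70.9%, and the 98 genes just under the limit, at 19 counts, one of 73.1%. Of the 7329 genes, 7180 also had 20 allele counts in both wild-type libraries. The mother was Ler and the father Col in every cross, so a maternal and a Ler preference cannot be told apart.

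RNA polymerase IV is a plant polymerase that makes the precursors of small interfering RNAs, which guide DNA methylation to transposable elements and repeats in the pathway called RNA-directed DNA methylation. NRPD1 is its largest subunit. Endosperm is the seed tissue that feeds the embryo, and it is the main place where plant genes are imprinted, that is, expressed mainly from the mother's or mainly from the father's copy. Endosperm inherits 2 maternal genomes and 1 paternal, so equal expression of every copy would put the share at 2 parts in 3.

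Allele counts were 2972023, 2922033 and 3726679 in homozygous nrpd1 and 3222918 and 3501626 in wild type, 17.8% to 18.4% of all counts. NRPD1 itself (AT1G63020, one of the listed loci) had 26.9, 20.6 and 31.0 CPM (counts per 1000000 counts of the library) in homozygous nrpd1 and 48.7 and 39.7 CPM in wild type, so the groups did not overlap. Its reads in homozygous nrpd1 carried 0 Ler counts in each library, against 191, 136 and 268 Col counts, while wild type had 105 and 109 Ler counts against 221 and 194 Col counts. The deposited list that holds NRPD1 is named for Col holdout genes in nrpd1. These counts therefore do not show whether its maternal allele was silent. The labels do not give the site of the insertion, so the level of reads over the whole gene is no check of its loss. The 15 endosperm markers summed to 2412, 1996 and 2624 CPM in homozygous nrpd1 and to 2801 and 2646 CPM in wild type, lower in every homozygous nrpd1 library. Most of the sum came from a few genes, and the median marker had 11.7, 7.28 and 10.9 CPM in homozygous nrpd1 and 14.1 and 11.1 CPM in wild type. The most abundant, the transcription factor ICE1, had 1250, 1160 and 1410 CPM in homozygous nrpd1 and 1460 and 1390 CPM in wild type. The sucrose transporter SUC5 had 482, 374 and 556 CPM against 641 and 550 CPM. Both overlapped between genotypes. The transcription factor MYB118 had 285, 218 and 276 CPM against 319 and 348 CPM, and ZOU 78.9, 54.9 and 71 CPM against 57.6 and 57.1 CPM. All 3 homozygous nrpd1 libraries lay below wild type for 1 of the 15 and above it for 0. Of the 23850 genes with reads, 16.8% and 12.2% did so. AGL61, an endosperm gene of the earliest stages, was at 0 in all 5 libraries, and IKU2 was at 0 in the 3 homozygous nrpd1 libraries and in 1 of the 2 wild-type libraries. Seed coat, a tissue of the mother alone, left RNA in every library: 31 marker genes summed to 3853, 2832 and 2663 CPM in homozygous nrpd1 and to 2998 and 3290 CPM in wild type. The summed levels overlapped. The median marker, which is not the same gene in every library, did not, at 43.7, 42.7 and 27.3 CPM in homozygous nrpd1 and 25.6 and 17.62 CPM in wild type. All 3 homozygous nrpd1 libraries lay above wild type for 5 of the 31 and below it for 3, where 12.2% and 16.8% of the 23850 genes with reads did so. BAN, the anthocyanidin reductase of the inner seed coat and a listed locus, was among the 5, with 219, 157 and 89.7 CPM in homozygous nrpd1 and 22.3 and 13.2 CPM in wild type. So was CYP86B1, a suberin enzyme, with 43.7, 56.5 and 27.3 CPM against 7.15 and 12.3 CPM, itself the median marker in homozygous nrpd1 replicates 1 and 3. The 3 below wild type were AHA10, LUH and DVPE, the last with 341, 245 and 245 CPM against 421 and 412 CPM. The 21 embryo markers summed to 910, 984 and 1023 CPM in homozygous nrpd1 and to 970 and 1084 CPM in wild type. CUC2 and DRNL were at 0 in every library. All 3 homozygous nrpd1 libraries lay above wild type for 1 of the 21 and below it for 3, beside 12.2% and 16.8% of all genes with reads. These marker levels include listed loci: 6 of the 15 endosperm, 5 of the 31 seed coat and 6 of the 21 embryo markers. SUC5, ZOU and BAN are among them. Whether the allele carried at a listed locus plays a part in its level was not tested. In dissected tissue, fewer cells of a type and less RNA per cell cannot be told apart.

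2 libraries stood apart at the end of chromosome 5. Over the 74 genes from AT5G65710 to AT5G67130, the median share was 71.2%, 75.98% and 32.3% in homozygous nrpd1 replicates 1, 2 and 3 and 66.67% and 15.3% in wild-type replicates 1 and 2. Over the 27 genes beyond, to AT5G67630, it was 70.7%, 77.5% and 71.1% in homozygous nrpd1 and 68.0% and 15.3% in wild type. The same genes had medians between 66.67% and 78.8% in all 6 libraries of the second experiment. So homozygous nrpd1 replicate 3 and wild-type replicate 2 carried mostly Col reads there, and the other 3 libraries did not. Outside that end, windows of 25 neighbouring genes departed from the library's own median by no more than 10.8 percentage points downward and 6.61 upward. The lowest such window, AT5G48160 to AT5G48630, lay low in all 5 libraries, at 60.3%, 67.3% and 60.0% in homozygous nrpd1 and 58.1% and 58.7% in wild type. Of its 25 genes, 16 were called paternal in homozygous nrpd1 and 16 in wild type, where 20.2% and 18.1% of all tested genes were. Since the window was picked for its low share, more paternal calls follow from the choice. Numbers of calls, repeated calls and differences are given below with and without these 74 and 27 genes. That alternative was chosen after the data were seen. Other results, such as those of gene lists, chromosomes and the second experiment, include these genes.

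**Figure D1:**
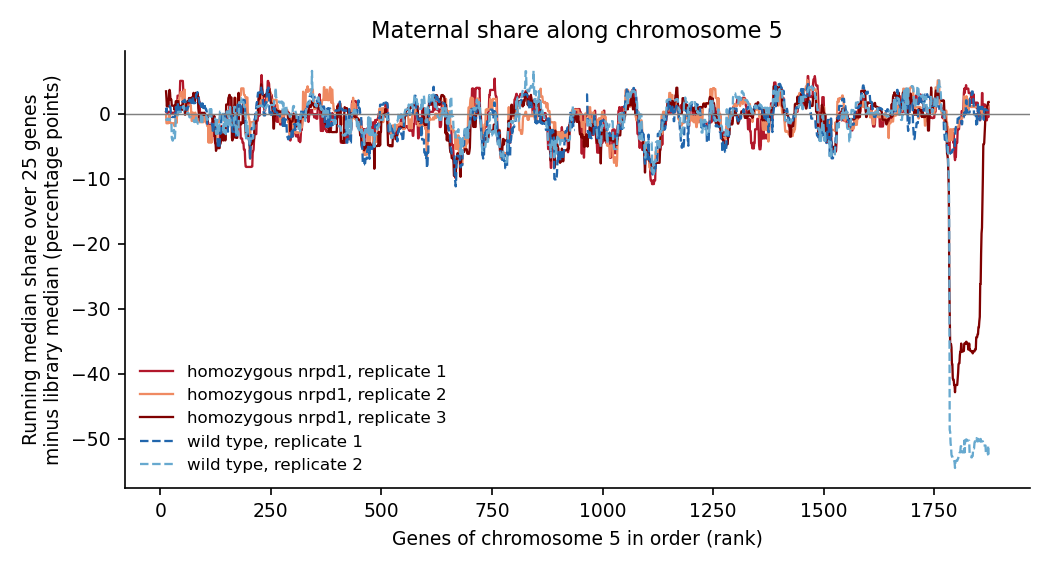
Running median of the maternal share over 25 genes in order along chromosome 5, minus each library's own median share (percentage points), in the 3 homozygous nrpd1 libraries (solid lines) and the 2 wild-type libraries (dashed lines). Homozygous nrpd1 replicate 3 and wild-type replicate 2 drop at the right-hand end, where their medians were 32.3% and 15.3%; the other libraries stay near 0.

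Medians differed between libraries. Over the 7329 genes the median share was 71.2%, 76.3% and 69.3% in homozygous nrpd1 replicates 1, 2 and 3. Over the 7180 genes measured in both genotypes, medians averaged 72.1% ± 3.63 in homozygous nrpd1 (SD, n = 3) and 67.5% ± 0.124 in wild type (SD, n = 2). Every homozygous nrpd1 library lay above both wild-type libraries, by 4.65 percentage points on average, with an exact permutation p of 0.2 (two-sided), the smallest that 3 against 2 libraries can give. Without homozygous nrpd1 replicate 2 the difference was 2.57 points, and without replicate 3 it was 6.13 points. Replicate 2, with the highest median, also had the highest summed level of the 16 storage and maturation genes listed below, at 54817 CPM, beside 27693 and 28177 CPM in the other homozygous nrpd1 libraries and 19818 and 25294 CPM in wild type. Its part in the median was not tested. For this reason each gene was tested against the median share of its own library as the null, and not against 2 parts in 3.

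**Figure D2:**
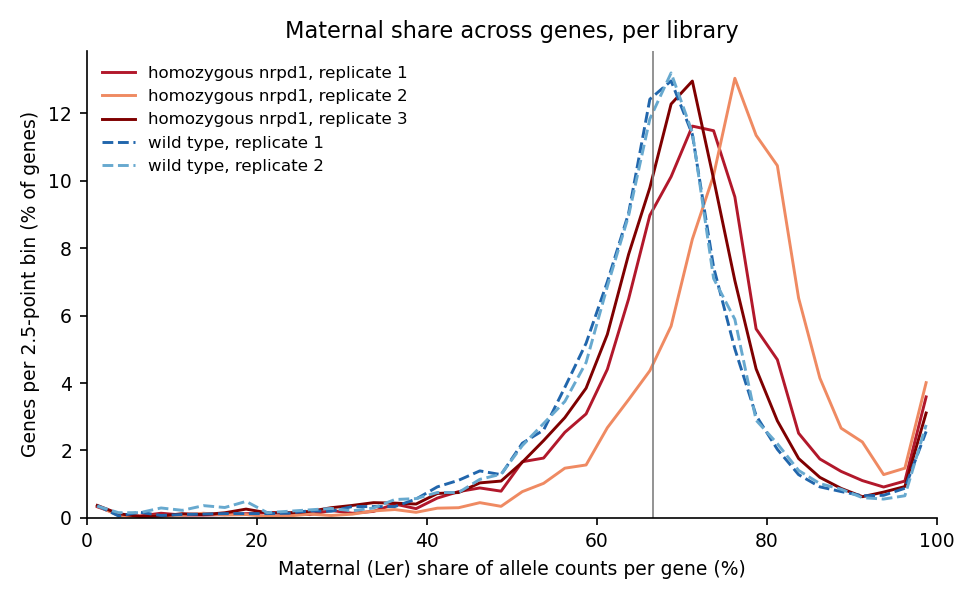
Distribution of the maternal share (x axis, %) over genes (y axis, % of genes per bin) in each of the 3 homozygous nrpd1 libraries (solid) and 2 wild-type libraries (dashed); the grey line marks 2 parts in 3. Homozygous nrpd1 peaks lie to the right of wild type, farthest in replicate 2 (median 76.3%), and every library has a second rise near 100%.

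Parental bias remained common without RNA polymerase IV. By edgeR's quasi-likelihood test with Benjamini-Hochberg adjustment over all 7329 genes, 1196 genes (16.3%) had a share above the library medians and are called maternal, and 1477 genes (20.2%) had a share below them and are called paternal; 4656 genes passed in neither direction. All 3 libraries lay on the called side for 1191 of the maternal and 1472 of the paternal calls. Over the summed counts, the median share was 85.5% for maternal calls, with quartiles of 80.1% and 95.7%. For paternal calls it was 58.3%, with quartiles of 50.2% and 63.3%, so most paternal calls still had more maternal than paternal reads. Without the chromosome 5 end the counts were 1254 maternal and 1555 paternal. Leaving out replicate 1 gave 830 and 1106 calls, the lowest numbers of any library left out.

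A stricter class took called genes whose summed share reached 85% or more, or 50% or less. It held 617 maternal genes (8.42%) and 364 paternal genes (4.97%). Without the chromosome 5 end it held 615 and 347. At its far ends, 97 genes had no paternal count in any homozygous nrpd1 library and 14 had no maternal count. Of the 76 genes without paternal counts that were measured in both genotypes, 44 had none in wild type either, and of the 13 without maternal counts, 11 had none in wild type. Among the 549 strongly maternal genes measured in both genotypes, the median share was 95.2% in homozygous nrpd1 and 92.6% in wild type. Among the 357 strongly paternal genes it was 41.1% in homozygous nrpd1 and 35.3% in wild type. The genes were chosen by their share in homozygous nrpd1, and the limits of 85% and 50% are not relative to library medians. These medians therefore do not compare the genotypes on equal terms.

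The most maternal genes with at least 50 allele counts in every homozygous nrpd1 library showed no paternal read. AT2G15220, annotated as a plant basic secretory protein, had 519, 702 and 737 allele counts in homozygous nrpd1 and 450 and 583 in wild type, every one of them Ler. A count of 0 among its 1958 allele counts in homozygous nrpd1 allows a paternal share of up to 0.153%, and the 1033 counts of wild type one of up to 0.290%. Such limits and the Wilson intervals below cover counting error only, since reads carried no molecular identifiers. The 11 genes next in rank also had no paternal count in homozygous nrpd1, and their wild-type shares lay between 99.1% and 100%. They include the GDSL lipase AT1G28590, the α/β hydrolases AT5G42930 and AT5G47330, the berberine-family oxidase AT4G20860, the YDG/SRA domain protein AT5G47150 and DFR (AT5G42800), the dihydroflavonol reductase of proanthocyanidin synthesis. DFR had 443, 309 and 234 Ler counts in homozygous nrpd1 and 294 and 183 in wild type, and 0 Col counts in all 5 libraries.

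The most paternal genes mirrored this at lower depth. MSRB4 (AT4G04810), a methionine sulfoxide reductase that repairs oxidised proteins, had 0 Ler counts in every library, against 108, 182 and 177 Col counts in homozygous nrpd1 and 35 and 36 in wild type. AT4G07825, an uncharacterized protein, had Col reads at 6.15, 5.65 and 9.27 CPM in homozygous nrpd1 and at 8.13 and 7.51 CPM in wild type, again with 0 Ler counts. HSD2 (AT3G47350), a hydroxysteroid dehydrogenase with a close paralog, had 104, 64 and 107 Col counts in homozygous nrpd1 and 126 and 137 in wild type, and no Ler count. The limits that a count of 0 allows for the maternal share in homozygous nrpd1 were 0.642% for MSRB4, 0.777% for AT4G07825 and 1.09% for HSD2. All 3 genes thus had Col counts alone in both genotypes, with these limits for homozygous nrpd1. Since the mother was always Ler, the counts do not separate a silent maternal allele from a Ler allele that could not be read. PSRP6 (AT5G17870), a plastid ribosomal protein, had shares of 0%, 0% and 0.662% in homozygous nrpd1 and of 0% in both wild-type libraries. The noncoding transcript AT4G38932 had shares of 0.990%, 2.42% and 1.88% against 0.714% and 0.685%, but it overlaps AT4G38930 on the other strand and the sources used here do not say whether strand was used in counting.

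Bias seen in wild type was mostly seen again in homozygous nrpd1. In wild type, 921 genes (12.8% of 7180) were called maternal and 1301 (18.1%) paternal. Of the 921, 759 were also called maternal in homozygous nrpd1, which is 82.4% of the wild-type calls and 67.3% of the 1128 homozygous nrpd1 calls among the genes measured in both. Of the 1301, 1142 were also called paternal in homozygous nrpd1, 87.8% of the wild-type and 78.0% of the 1465 homozygous nrpd1 calls. Of the 162 maternal and 159 paternal wild-type calls that were not repeated, 153 and 148 kept their side of the median in homozygous nrpd1. The side alone does not say how near the threshold they lay. Only 1 of each passed the test of the difference between genotypes, AT5G40700 among the maternal and EXT3 among the paternal. 4 genes were called in opposite directions. Of the strongly biased genes measured in both, 477 of 549 maternal (86.9%) and 337 of 357 paternal (94.4%) were called the same way in wild type. Without the chromosome 5 end, 873 of 1181 maternal and 1296 of 1549 paternal wild-type calls were repeated. Both are smaller parts of the wild-type calls than with that end kept.

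**Figure D3:**
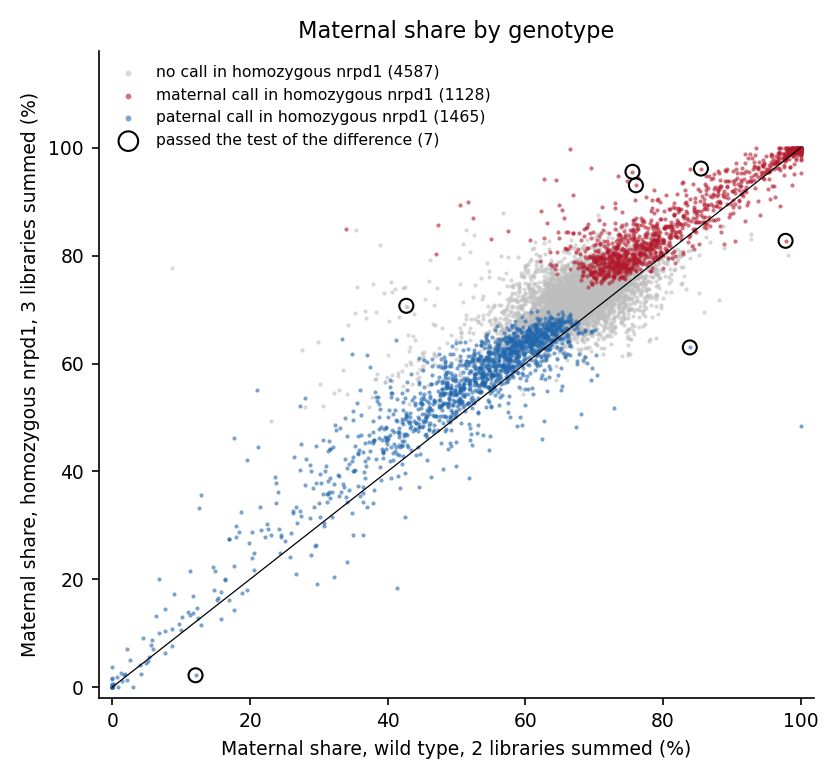
Maternal share of each of 7180 genes in homozygous nrpd1 (y axis, %, 3 libraries summed) against wild type (x axis, %, 2 libraries summed), coloured by the call in homozygous nrpd1; circles mark the 7 genes past the test of the difference. Most points follow the diagonal, a little above it, since homozygous nrpd1 medians were higher, and 1128 maternal and 1465 paternal calls occupy the upper and the lower end.

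A difference in bias between genotypes passed the test for 7 genes. In a fit of all 5 libraries with an allele by genotype term, 4 genes (0.0557% of 7180) had a higher maternal share in homozygous nrpd1 than in wild type, relative to the library medians, and 3 (0.0418%) a lower one; 342 genes had an unadjusted p under 0.05. Log2 differences below are of the maternal to paternal ratio, homozygous nrpd1 minus wild type, with the standard error of the fit. Without the chromosome 5 end, 11 genes were higher and 5 lower, and the same 7 genes were among them. The number of higher genes was 1 without homozygous nrpd1 replicate 1, 10 without replicate 3 and 28 without wild-type replicate 1, the setting that leaves wild-type replicate 2 alone.

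MYB115 (AT5G40360, chromosome 5, 16144792 to 16146671 in TAIR10.1) encodes a transcription factor that acts with MYB118 in the maturing endosperm. Its share was 80.5%, 87.3% and 82.8% in homozygous nrpd1 and 96.4% and 99.2% in wild type, so the groups did not overlap. The log2 difference was -3.47 ± 0.39 (adjusted p = 0.01). Col reads stood at 7.11, 2.32 and 5.67 CPM in homozygous nrpd1 and at 0.973 and 0.209 CPM in wild type, while Ler reads averaged 24.2 ± 7.18 CPM (SD, n = 3) and 25.8 ± 0.00139 CPM (SD, n = 2). The difference thus lay in the paternal reads, and the gene was still called maternal in homozygous nrpd1 (adjusted p = 0.000208). In the second experiment its share was 84.8%, 88.8% and 86.8% in paternal nrpd1 and 95.1%, 98.3% and 97.3% in wild type, again without overlap. The call of a difference was lost without homozygous nrpd1 replicate 1 (log2 -3.34, adjusted p = 0.136), and with the listed loci and the start of chromosome 5 kept (adjusted p = 0.0557).

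AT5G40700, annotated as similar to the chromatin remodeller ATRX, lies on the same chromosome at 16291755 to 16293649, with 16 measured genes between it and MYB115. Shares were 59.4%, 68.7% and 63.2% in homozygous nrpd1 and 82.1% and 85.5% in wild type. The gene was called maternal in wild type and paternal in homozygous nrpd1, with a log2 difference of -1.88 ± 0.17 (adjusted p = 0.00353). Its total level averaged 74.0 ± 16.3 CPM in homozygous nrpd1 (SD, n = 3) and 74.1 ± 0.632 CPM in wild type (SD, n = 2), with Col reads at 10.3 ± 3.71 CPM and 4.57 ± 0.494 CPM. In the second experiment it had 65.5%, 57.8% and 61.8% in paternal nrpd1 against 89.5%, 90.7% and 92.7% in wild type. The 16 genes between the pair had median shares of 73.6%, 73.9% and 66.6% in homozygous nrpd1 and 63.8% and 63.4% in wild type, and the smallest adjusted p of a difference among them was 0.887. The paternal call in homozygous nrpd1 depends on the null: against 2 parts in 3 it did not pass (adjusted p = 0.466).

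AT4G10490 (chromosome 4, 6483867 to 6485360) encodes a 2-oxoglutarate and iron dependent oxygenase and was paternal in both genotypes, and more so in homozygous nrpd1. Its share was 1.92%, 2.68% and 2.05% in homozygous nrpd1 and 10.5% and 13.4% in wild type (log2 -2.90 ± 0.17, adjusted p = 0.000229). Here the maternal reads were lower, at 0.731 ± 0.0801 CPM in homozygous nrpd1 (SD, n = 3) and 5.77 ± 1.28 CPM in wild type (SD, n = 2). Shares in the second experiment overlapped, at 8.55%, 15.7% and 18.5% in paternal nrpd1 and 11.0%, 15.5% and 15.9% in wild type.

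The 4 genes with a higher maternal share were AT2G23400, EXT3, AT3G59480 and AT4G16190. AT2G23400 (chromosome 2, 9963809 to 9965414), of the undecaprenyl pyrophosphate synthetase family, had 96.3%, 96.6% and 95.6% in homozygous nrpd1 and 84.9% and 85.8% in wild type (log2 1.77 ± 0.14, adjusted p = 0.00111). Its Col reads stood at 1.85, 2.57 and 2.31 CPM in homozygous nrpd1 and at 5.27 and 8.92 CPM in wild type. In the second experiment the share was 97.2%, 96.7% and 100% in paternal nrpd1, the last from only 10 allele counts, and 88.9%, 91.3% and 89.0% in wild type. MYB115, AT5G40700 and AT2G23400 were the differing genes whose groups also stood apart, in the same direction, in the experiment with a wild-type mother.

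EXT3 (AT1G21310, chromosome 1, 7453245 to 7455009), a cell wall extensin, had shares of 68.6%, 78.1% and 66.1% in homozygous nrpd1 and 40.0% and 45.5% in wild type (log2 1.4 ± 0.15, adjusted p = 0.00904). It was called paternal in wild type and passed in neither direction in homozygous nrpd1 (adjusted p = 0.532). Both alleles differed: Ler reads were at 42.5 ± 6.96 CPM in homozygous nrpd1 and 22.2 ± 0.196 CPM in wild type, and Col reads at 17.2 ± 2.90 CPM and 30.0 ± 4.56 CPM (SD, n = 3 and n = 2). AT3G59480 (chromosome 3, 21982989 to 21984598), a sugar kinase of the pfkB family, had 92.3%, 93.7% and 92.8% against 80.0% and 72.2% in wild type (log2 1.73 ± 0.19, adjusted p = 0.00978), with Ler reads at 79.4 ± 22.8 CPM in homozygous nrpd1 and 28.0 ± 4.04 CPM in wild type. AT4G16190 (chromosome 4, 9171280 to 9173667), a papain-like cysteine protease, had 95.01%, 97.2% and 94.6% in homozygous nrpd1 and 68.3% and 82.2% in wild type (log2 2.5 ± 0.33, adjusted p = 0.0346). The difference calls of these last 3 genes were lost without homozygous nrpd1 replicate 1, at adjusted p = 0.0758 for EXT3, 0.1 for AT3G59480 and 0.245 for AT4G16190. AT4G16190 also lost it without homozygous nrpd1 replicate 2 or 3 or without wild-type replicate 1 (adjusted p = 0.0582, 0.11 and 0.0789), and AT3G59480 without wild-type replicate 2 (adjusted p = 0.05 as rounded, just past the limit). In the second experiment the shares of EXT3, AT3G59480 and AT4G16190 in paternal nrpd1 overlapped with those of its wild type.

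**Figure D4:**
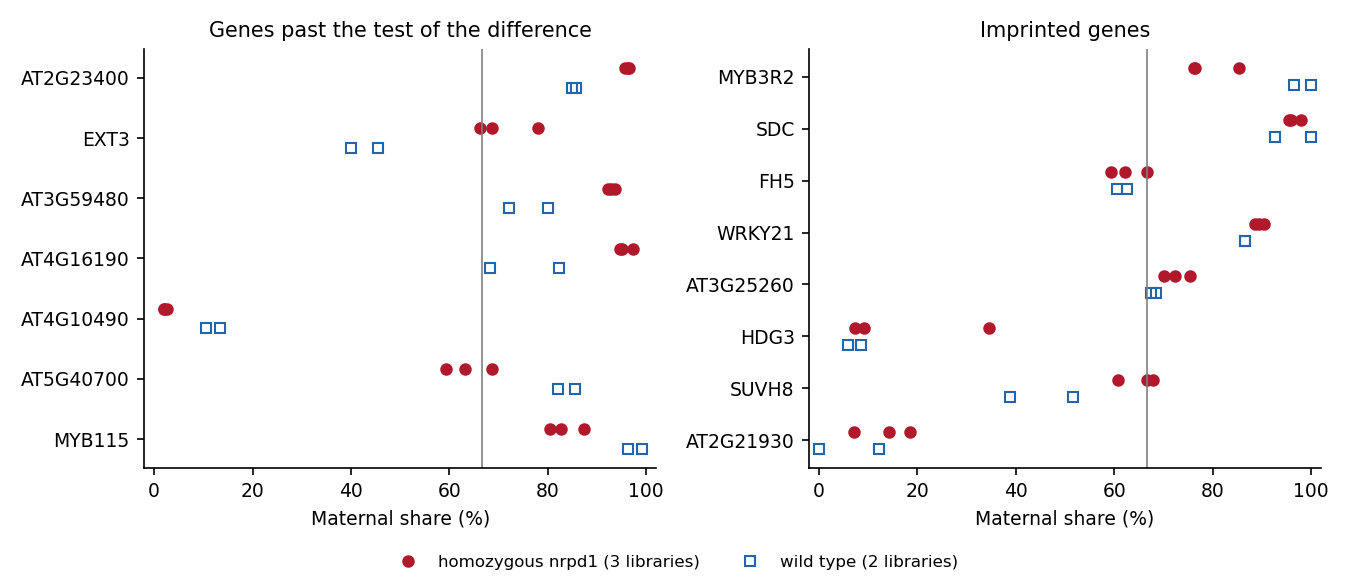
Maternal share (x axis, %) of single genes in each of the 3 homozygous nrpd1 libraries (filled circles, upper row of each gene) and the 2 wild-type libraries (open squares, lower row); the grey line marks 2 parts in 3. Left, the 7 genes past the test of the difference, which were chosen by it, so that their groups stand apart. Right, the 8 imprinted genes that were measured, among which HDG3 replicate 2 of homozygous nrpd1 (34.6%) lies away from the others.

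Leaving out the chromosome 5 end added 7 genes with a higher and 2 with a lower maternal share. Storage proteins were among them: SESA4 (AT4G27170), a 2S albumin, had 77.1%, 84.4% and 72.6% in homozygous nrpd1 and 64.9% and 64.0% in wild type (log2 0.68 ± 0.10, adjusted p = 0.00225). CRA1 (AT5G44120), a 12S cruciferin, had 50.9%, 60.8% and 49.0% against 40.5% and 40.7% (log2 0.43 ± 0.07, adjusted p = 0.00400). With the chromosome end kept, their adjusted p was 0.264 and 0.115. The storage genes belong to families of near copies, and the annotation states that Ler carries a further copy of CRA1, so these shares are uncertain. The others were AT3G59850, a pectin lyase-like protein (82.4%, 87.5% and 83.9% against 65.8% and 66.5%), the thionin AT2G15010, the AIG2-like AT3G28950, the citrate transporter FRD3 and the desiccation-like AT1G47980 on the higher side. On the lower side stood the monooxygenase AT1G12200 (74.4%, 74.9% and 68.7% against 80.0% and 78.3%) and the cytochrome P450 CYP72A11 (22.7%, 11.9% and 17.7% against 45.2% and 36.9%). In none of these 9 genes did a homozygous nrpd1 library overlap with a wild-type library. The genes were chosen by this same difference, so the lack of overlap is no further support.

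Among genes biased in wild type and not called the same way in homozygous nrpd1, several had few reads. AT2G01422, a noncoding RNA, carried Ler reads alone in wild type, from 22 and 28 allele counts, and 21.7%, 30.0% and 64.5% in homozygous nrpd1, from 60, 60 and 169. Its paternal call in homozygous nrpd1 (adjusted p = 0.027) was lost without replicate 1 (adjusted p = 0.129) or replicate 2 (adjusted p = 0.072). Its difference did not pass (adjusted p = 0.8), although the groups were far apart, and it passed without homozygous nrpd1 replicate 3 (adjusted p = 0.0161), in which the share was highest. In the second experiment the same gene had 45.2%, 37.1% and 20.6% in paternal nrpd1 and 100% in each wild-type library. WOX8 (AT5G45980), a homeobox gene of the early embryo and its suspensor, had 77.7%, 58.3% and 69.9% in homozygous nrpd1 and 88.3% and 88.1% in wild type (difference adjusted p = 0.623). GSTU13, a glutathione transferase, had 62.5%, 72.1% and 58.5% against 40.5% and 21.8% (difference adjusted p = 0.8). In WOX8 and GSTU13 the groups did not overlap, but neither difference passed the test.

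Imprinted genes known from earlier work on Arabidopsis endosperm were measured in small number, since most were listed or had few allele counts. Of 13 genes known as maternally expressed, 4 were measured, and 2 were called maternal and 1 paternal in homozygous nrpd1. Of 24 known as paternally expressed, 4 were measured, and 2 were called paternal and none maternal. Over all 7329 genes, 16.3% were called maternal and 20.2% paternal. None of the 8 passed the test of the difference. The median share was 81.1% over the maternally expressed genes and 41.0% over the paternally expressed ones, beside 72.3% over all 7329 genes.

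SDC (AT2G17690), an F-box gene whose promoter repeats are a textbook target of RNA-directed DNA methylation in leaves, stayed maternal. Its share was 95.4%, 97.9% and 95.9% in homozygous nrpd1, from 524, 472 and 856 allele counts, and 92.7% and 100% in wild type, from 192 and 119. The groups overlapped, and the bias in homozygous nrpd1 had a log2 of 3.37 ± 0.15 relative to the library medians (adjusted p = 6.81e-07). Ler reads stood at 29.9, 29.0 and 39.4 CPM in homozygous nrpd1 and at 10.2 and 6.20 CPM in wild type, so the maternal allele was read more often in homozygous nrpd1 in all 3 libraries, with no test made of that level. WRKY21 (AT2G30590), a WRKY transcription factor, had 88.6%, 90.5% and 89.5% in homozygous nrpd1 and 86.5% and 86.6% in wild type (bias log2 1.72 ± 0.09, adjusted p = 1.63e-06). FH5 (AT5G54650), a formin of the posterior endosperm and a maternally expressed gene by earlier work, had 62.2%, 66.67% and 59.3% against 60.5% and 62.6% and was called paternal here (adjusted p = 0.00972). That call did not pass against a null of 2 parts in 3 (adjusted p = 0.412). AT3G25260, a transporter, lay at the library medians with 72.3%, 75.5% and 70.1% in homozygous nrpd1 and 67.4% and 68.6% in wild type.

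Among the paternally expressed genes, HDG3 (AT2G32370), a homeodomain leucine zipper factor, had shares of 7.28%, 34.6% and 9.09% in homozygous nrpd1 and 5.85% and 8.47% in wild type. The high value in replicate 2 rests on 26 allele counts, with a 95% Wilson interval of 19.4% to 53.8%, which lies above the intervals of replicates 1 and 3. HDG3 was called paternal in homozygous nrpd1 (log2 -4.35 ± 0.29, adjusted p = 7.88e-06), and Col reads were at 8.36, 1.07 and 10.1 CPM there and at 11.0 and 5.63 CPM in wild type. In the second experiment its share was 29.1%, 37.0% and 36.7% in paternal nrpd1 and 12.3%, 14.3% and 23.2% in wild type. AT2G21930, an F-box associated protein, had 7.14%, 18.4% and 14.3% against 12.1% and 0% and was called paternal in both genotypes (adjusted p = 1.17e-05 in homozygous nrpd1). SUVH8 (AT2G24740), a histone methyltransferase homolog, had 60.7%, 67.9% and 66.67% in homozygous nrpd1 and 51.5% and 38.9% in wild type, and was called paternal only in wild type; the difference had an adjusted p of 0.951. MYB3R2 (AT4G00540), a Myb factor, went against its label: it had 76.5%, 76.2% and 85.4% in homozygous nrpd1, where no call was made, and 96.6% and 100% in wild type, where it was called maternal.

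The starts of SDC and MYB115 are shown because both hold a long direct repeat, a feature of several known targets of the pathway, and AT2G23400 because it is the differing gene with the next longest. Each window runs from 250 bases before to 50 after the annotated start in RefSeq's TAIR10.1, read 5′ to 3′ on the gene's strand, and capitals mark both copies of the longest exact repeat that does not overlap itself. The SDC window is chr2:7681912-7682211 (plus strand), that of MYB115 chr5:16144542-16144841 (plus strand) and that of AT2G23400 chr2:9965365-9965664 (minus strand).
SDC: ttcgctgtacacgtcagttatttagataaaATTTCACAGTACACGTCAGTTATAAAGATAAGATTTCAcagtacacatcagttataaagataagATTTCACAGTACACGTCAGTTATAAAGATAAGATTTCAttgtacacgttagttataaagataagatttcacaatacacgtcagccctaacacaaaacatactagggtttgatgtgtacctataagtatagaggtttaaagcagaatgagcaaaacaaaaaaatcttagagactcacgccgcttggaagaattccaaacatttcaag
MYB115: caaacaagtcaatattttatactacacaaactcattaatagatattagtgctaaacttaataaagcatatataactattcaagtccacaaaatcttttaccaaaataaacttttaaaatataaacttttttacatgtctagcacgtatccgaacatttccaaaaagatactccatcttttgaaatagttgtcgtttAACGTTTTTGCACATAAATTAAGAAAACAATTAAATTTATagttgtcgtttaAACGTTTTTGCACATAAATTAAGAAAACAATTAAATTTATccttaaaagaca
AT2G23400: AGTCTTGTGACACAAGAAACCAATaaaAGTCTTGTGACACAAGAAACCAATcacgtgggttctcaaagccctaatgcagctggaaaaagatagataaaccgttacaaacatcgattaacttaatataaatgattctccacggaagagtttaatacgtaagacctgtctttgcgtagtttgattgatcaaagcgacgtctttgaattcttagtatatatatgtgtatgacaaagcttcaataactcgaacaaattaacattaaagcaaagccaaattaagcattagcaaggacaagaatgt

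The longest exact repeat, which need not be the unit of a tandem array, was 38 bases in SDC, 40 in MYB115 and 24 in AT2G23400. Repeats as long as these were found in 0.197%, 0.164% and 0.995% of the 27443 windows of protein-coding genes of the same length. The copies of MYB115 began 54 and 2 bases before the annotated start. A repeat of 20 bases or more was found in 2.01% of all such windows, 2.11% of those of the measured genes, 2.94% of maternal calls and 1.65% of paternal calls, so called genes lay near the background. It was found in 2 of the 16 genes that differed between genotypes with the chromosome 5 end left out, MYB115 and AT2G23400. HDG3, AT5G40700 and AT4G10490 had longest repeats of 11, 8 and 8 bases, and a repeat of at least 11 bases is present in 21.1% of all windows. These matches describe the letters of the Col genome; the Ler sequence was not used here.

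Seed coat genes were mostly maternal. Of 31 markers, 15 were measured, and 12 were called maternal and 1 paternal in homozygous nrpd1, where 16.3% and 20.2% of all measured genes were. SBT1.7 (AT5G67360), among the 12, lies in the chromosome 5 end. Its share was 86.4%, 87.4% and 81.9% in homozygous nrpd1 and 83.0% and 8.37% in wild type. The median share over the 15 was 99.1%, beside 72.3% over all 7329 genes, and it was 98.5% in wild type over the 14 measured there. TT10 (AT5G48100), the laccase that browns the seed coat, had 99.9%, 99.8% and 99.9% in homozygous nrpd1 and 99.2% and 99.8% in wild type, with Ler reads at 255, 215 and 207 CPM against 168 and 200 CPM. TT8, a regulator of flavonoid genes, had 100%, 99.8% and 100% against 99.7% and 100%, and TT4, the chalcone synthase, 97.9%, 98.7% and 97.1% against 98.7% and 95.01%. AT4G11180, a dirigent-like protein of the seed coat, had 99.9% in each homozygous nrpd1 library and 99.2% and 100% in wild type. F3H (AT3G51240), a flavanone hydroxylase, was called paternal, with 59.5%, 62.0% and 50.2% in homozygous nrpd1 and 51.0% and 46.0% in wild type. LUH (AT2G32700), a transcriptional corepressor of mucilage, had 70.6%, 81.3% and 69.4% against 71.1% and 68.96%, and MUCI10 (AT2G22900), a mucilage glycosyltransferase, 63.5%, 72.2% and 67.8% against 53.3% and 65.7%; neither was called. The part of seed coat RNA in the maternal calls, and in the higher medians of homozygous nrpd1, was not tested. The marker levels given above overlapped between the genotypes as sums and not as medians.

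Genes of RNA-directed DNA methylation were measured in 18 of 26 cases, and 2 were called maternal, 5 paternal and 11 in neither direction in homozygous nrpd1, near the 16.3% and 20.2% of all measured genes. Their median share was 71.4%, beside 72.3% over all measured genes, and none passed the test of the difference. AGO4 (AT2G27040), the effector that binds the small RNAs, had 63.4%, 67.7% and 61.6% in homozygous nrpd1 and 60.8% and 58.0% in wild type (bias log2 -0.54 ± 0.07, adjusted p = 0.000288), a call that did not pass against 2 parts in 3 (adjusted p = 0.499). NRPD4 (AT4G15950), a subunit of RNA polymerases IV and V, had 45.5%, 47.2% and 52.6% against 44.0% and 44.1% (adjusted p = 0.000184). SUVH9 (AT4G13460), which recruits RNA polymerase V, had 45.2%, 60.4% and 48.0% against 43.0% and 42.4% (adjusted p = 4.27e-05). On the maternal side stood CLSY3 (AT1G05490), a chromatin remodeller that directs RNA polymerase IV to its sites, with 96.9%, 95.7% and 90.6% against 94.4% and 100% (adjusted p = 0.000280), and AGO9 (AT5G21150), an argonaute of reproductive tissue, with 90.2%, 87.8% and 79.6% against 79.1% and 82.6% (adjusted p = 0.00144). CMT2 (AT4G19020), a non-CG methyltransferase, was the only called gene of 6 measured in methylation maintenance and removal, with 64.0%, 72.5% and 67.7% in homozygous nrpd1 against 64.4% and 62.8% (adjusted p = 0.0362), a call lost under 5 alternatives (without replicate 1, adjusted p = 0.274, and without replicate 2, 0.0617), with its direction turned under a null of 2 parts in 3. VRN2 (AT4G16845), a Polycomb subunit, was the only called gene of 3 measured in that complex, with 50%, 59.8% and 50.8% against 50.4% and 50.8% (adjusted p = 2.33e-05). None of the 17 type I MADS-box genes had enough allele counts.

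Of 22 photosynthesis genes, 12 were measured, and 9 were called paternal and none maternal in homozygous nrpd1. Paternal calls made up 20.2% of all measured genes and 31.5% of the third with the most allele counts. The median share of the 12 was 65.9%, beside 72.3% over all measured genes. LHCB6, an antenna protein of photosystem II, had 44.9%, 45.9% and 42.1% in homozygous nrpd1 and 42.7% and 44.3% in wild type. LHCA4, of photosystem I, had 55.6%, 61.6% and 55.8% against 54.0% and 53.2%, and PRK, the phosphoribulokinase of carbon fixation, 60.7%, 64.0% and 60.3% against 58.9% and 59.3%. One of the 9, PSBO1 (AT5G66570), lies in the chromosome 5 end, with 62.2%, 68.7% and 27.7% against 59.8% and 14.1%. Several of these calls rest on the median as null: PRK and PSBQ-2 (AT4G05180) did not pass against 2 parts in 3 (adjusted p = 0.139 and 0.328).

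Of 16 seed storage and maturation genes, 8 were measured, and 2 were called maternal and 4 paternal in homozygous nrpd1, beside 16.3% and 20.2% of all measured genes. OLEO4 (AT3G27660), an oil body protein, had 8.28%, 10.03% and 3.79% in homozygous nrpd1 and 5.08% and 6.44% in wild type, while the oleosin AT5G40420 had 74.0%, 80.9% and 72.3% against 69.1% and 68.9%. FUS3 (AT3G26790), a regulator of maturation that is also an embryo marker, had 63.5%, 68.8% and 62.1% against 62.1% and 59.0%. Of 5 measured embryo markers FUS3 was the only one called in homozygous nrpd1, as paternal. That call did not pass against 2 parts in 3 (adjusted p = 0.649). In wild type FUS3 was also called paternal, and LEC1 and ABI3 were called maternal (adjusted p = 0.0485 and 0.0410). Of 4 measured endosperm markers 2 were called maternal, MYB115 and ICE1, the partner of ZHOUPI in endosperm breakdown, with 81.3%, 86.5% and 78.7% against 77.3% and 76.6%, and 1 was called paternal, FH5.

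In the smaller lists, to be read beside the 16.3% maternal and 20.2% paternal calls over all measured genes, 2 of 6 cell division genes were called paternal, CDKB2;2 and the cytokinesis kinesin HINKEL (AT1G18370), and 2 of 4 heat shock genes maternal, HSP17.4 and the chaperone HSP70 (AT3G12580). The call of CDKB2;2 (AT1G20930) was lost under 6 alternatives, among them TMM factors (adjusted p = 0.0559), without replicate 1 (0.116) and without replicate 2 (0.164). That of HINKEL was lost under 4, among them DESeq2 (0.0793) and without replicate 1 (0.0569). The heat shock call of HSP17.4 (AT3G46230) came with 83.3%, 98.1% and 80.0% in homozygous nrpd1 and 70.3% and 68.8% in wild type, and its Ler reads were at 1.49, 32.9 and 1.34 CPM against 1.49 and 1.15 CPM. It was lost without replicate 2 (adjusted p = 0.134). The call of HSP70 was lost without replicate 1 (0.126) or 2 (0.0885) and with DESeq2 (0.188), and that of the housekeeping gene AT4G34270 without replicate 1 (0.138) and with DESeq2 (0.203). Of 5 housekeeping genes, the TIP41-like AT4G34270 was called maternal and UBQ10 (AT4G05320), a polyubiquitin of near-identical repeats with close family members, paternal, with 9.75%, 13.9% and 9.72% in homozygous nrpd1 and 9.94% and 7.71% in wild type. UBQ10 shares in the second experiment were 70.7%, 66.9% and 70.1% in paternal nrpd1 and 66.0%, 61.2% and 63.8% in wild type, so its share was low in all 5 libraries of the first experiment and in none of the second. Of 4 sulfur deficiency genes, whose 7 list members summed to 722, 684 and 630 CPM in homozygous nrpd1 and to 234 and 264 CPM in wild type, only APR1 (AT4G04610), the sulfate assimilation enzyme, was called, as paternal with an adjusted p of 0.0462. That call was lost under 8 alternatives, among them TMM factors (0.0641), DESeq2 (0.285), without replicate 2 (0.197) and without replicate 3 (0.059). Of the 7 sulfur deficiency genes, 2 stand in the deposited list of loci.

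**Figure D5:**
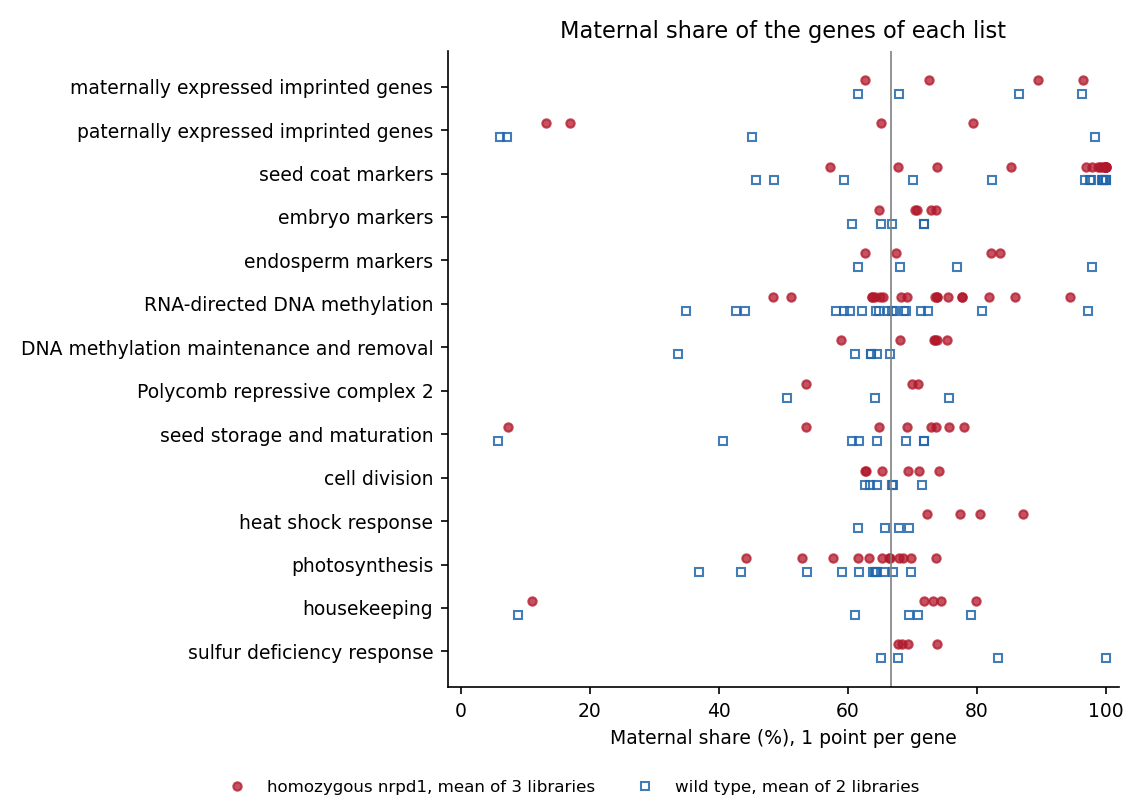
Mean maternal share (x axis, %) of each measured gene of 14 gene lists, in homozygous nrpd1 (filled circles, upper row, mean of 3 libraries) and in wild type (open squares, lower row, mean of 2 libraries); the grey line marks 2 parts in 3. Seed coat markers crowd near 100%, with a median of 99.1% in homozygous nrpd1, and photosynthesis genes lie mostly below 72.3%, the median of all genes.

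The called genes differed little in position or level. Maternal calls made up 15.05% to 17.55% and paternal calls 17.8% to 22.6% of the measured genes of each chromosome. The median total level was 36.7 CPM for maternal calls, 34.0 CPM for paternal calls and 34.7 CPM for genes without a call. Calls grew more frequent with allele counts, which set the precision of a share. In the third of genes with the fewest, a median of 49 per library, 12.9% were maternal and 12.7% paternal. In the third with the most, a median of 434, 18.6% were maternal and 31.5% paternal. Of 62 genes that are not annotated as protein coding, 7 (11.3%) were maternal and 23 (37.1%) paternal, beside 16.3% and 20.2% of all measured genes.

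The second experiment gave shares for part of the strongly biased genes. The share here is the mean over its 3 libraries, for genes with at least 20 allele counts in each. Of the strongly maternal genes, 139 of 210 (66.2%) also reached 85% in paternal nrpd1, and 127 of 200 (63.5%) did in its wild type; of all measured genes, 5.02% and 3.81% did. Of the strongly paternal genes, 109 of 244 (44.7%) lay at or below 50% in paternal nrpd1 and 120 of 249 (48.2%) in its wild type, beside 5.52% and 5.53% of all. On the same side of the median lay 92.9% of the strongly maternal and 90.2% of the strongly paternal genes in paternal nrpd1, and 96.5% and 92.8% in its wild type. The kit, read length and age of seeds differ from the first experiment, so the values stand side by side without a test.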

How the data were processed

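RNA of hand-dissected endosperm was measured by mRNA-seq in 11 libraries, 5 in the first experiment and 6 in the second. The deposited tables hold whole-number counts per gene: in total and per allele (Ler, Col). Per the submitters' processing notes, cutadapt, Trim Galore, FastQC, TopHat and HTSeq were used with the TAIR10 genome; how reads were assigned to alleles, and whether strand was used, is not given in the sources used here. The labels' protocols name the Illumina TruSeq stranded kit for the first experiment and the SMARTer kit for the second. The deposited list of loci of chromosomes 1 and 2, and AT5G01010 to AT5G12300, were left out, as were 5 summary lines that name no gene in the tables of the second experiment (11.6% to 13.3% of counts). Total counts were 15926510 to 20817788 per library in the first experiment and 24845721 to 35629462 in the second.

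Allele counts of the first experiment were tested with edgeR 4.0.16 (R 4.3.3, quasi-likelihood test), with 1 term per library and an allele term, and column sizes that put the null at each library's median share; the difference between genotypes was an allele by genotype term over all 5 libraries. P-values were adjusted by Benjamini and Hochberg over all genes tested, with a threshold of 0.05. Both fits were also run on simulated counts, with the same dispersion for every gene and no stretch like the end of chromosome 5. That run does not give the error rates in these data. Medians were compared by an exact permutation test. DESeq2 1.42.0, TMM factors, the null of 2 parts in 3, other count minimums, the listed loci kept, a replicate block and libraries left out were the alternatives. Intervals are 95% Wilson intervals, and the limit for a count of 0 is 3 counts of the summed allele counts. Gene names, products and sequences came from RefSeq's annotation of TAIR10.1 by locus tag, in which 7328 of 7329 genes matched.

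The genes, lists and rules were chosen with earlier results of these data known. Named genes are the 12 maternal and 12 paternal calls with the largest log2 bias and 50 allele counts in every homozygous nrpd1 library, up to 6 per direction that differed between genotypes, 5 per direction called only in wild type, every measured imprinted gene, up to 4 called genes of each other list, and up to 6 with no count of 1 parent. F3H, LUH, MUCI10, BAN, CYP86B1, AHA10, DVPE, SBT1.7, ZOU, LEC1, ABI3, AGO9, PSBO1, AT5G40420 and the genes added without the chromosome 5 end were named after their values were seen.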

Additional observations from a re-analysis of the deposited data

Results flagged for a closer look

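7 genes stood out because the maternal to paternal ratio, relative to the library medians, differed between homozygous nrpd1 and wild type by edgeR's allele by genotype term. The log2 difference, homozygous nrpd1 minus wild type, was -3.47 for MYB115 (AT5G40360), -2.9 for AT4G10490 and -1.88 for AT5G40700. It was 2.5 for AT4G16190, 1.77 for AT2G23400, 1.73 for AT3G59480 and 1.4 for EXT3 (AT1G21310). Their shares, errors and adjusted p-values stand in the text above.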

How the results depend on the processing

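Against 2 maternal to 1 paternal, 2303 genes were maternal and 661 paternal, and 601 wild-type paternal calls were repeated. DESeq2 gave 682 maternal and 900 paternal calls, 213 and 270 in wild type with 211 and 266 repeated, and 8 genes higher and 5 lower in homozygous nrpd1. With at least 50 allele counts there were 405 strongly maternal and 236 strongly paternal genes, and with no minimum 934 and 635, with 7 genes higher. With the listed loci and the start of chromosome 5 kept, 1392 genes were strongly paternal, 530 wild-type genes maternal with 442 repeated, 9 genes higher and 661 lower. This setting brought in 1641 genes of the list named for Col holdout genes in nrpd1, and 398 of AT5G01010 to AT5G12300. At listed loci, as for NRPD1 above, a lack of Ler counts does not show a silent maternal allele. Without the end of chromosome 5, an alternative chosen after the data were seen, 11 were higher and 5 lower. Leaving out 1 library, the number of higher genes ranged from 1 to 28 and of lower genes from 2 to 4; maternal calls ranged from 830 to 1080 and paternal calls from 1106 to 1384. With 1 wild-type library left, its own bias had no residual degrees of freedom and was not fitted, and in the difference the lone library was assumed to vary like the others. APR1 (AT4G04610) and CMT2 (AT4G19020) changed sign against 2 to 1, to log2 values of 0.073 and 0.097, neither past the threshold. The cause of these moves was not tested. Of the named genes' alternative values of bias, 875 kept direction and call, 45 lost the call, 3 gained it and 2 reversed; of the difference, 1039 kept both, 18 gained the call and 9 lost it.

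The labels give both genotypes replicates 1 and 2 but no shared batch. With the replicate number as a block, 13 genes were higher and 4 lower in homozygous nrpd1. Deviations of same-numbered libraries from their group means correlated at 0.0262 and 0.0168 over 7081 genes. With 2 wild-type libraries the deviations mirror each other, so these values cannot decide whether the numbers mark a shared batch.

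Precision follows allele counts: a gene with 20 counts in a library has a share too coarse for small differences, and 19040 genes could not be tested.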
